A study of Mus musculus with 6 samples.

Results

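The genes described here are 10 that modify, fold and crosslink collagen, taken by name: the prolyl 4-hydroxylase genes *P4hb* and *P4ha3*, the lysyl hydroxylase genes *Plod1* and *Plod3*, the prolyl 3-hydroxylase complex genes *P3h1*, *Crtap* and *Ppib*, the chaperone gene *Serpinh1*, and the lysyl oxidase genes *Lox* and *Loxl2*. They are 10 of the 55487 genes in the count table. The rule that names them uses no measured value, but they were chosen with earlier results of these data known. Poly(A) RNA from cartilaginous tissue of the mouse knee joint was sequenced at postnatal day 6 from 3 *Hbb*-cKO and 3 WT libraries. The *Hbb*-cKO mice carried a conditional knockout of *Hbb*, the gene of the haemoglobin β chain, in chondrocytes, and the WT mice are labelled wild type, with no agent named for either group. The study describes its chondrocyte knockout as floxed *Hbb* recombined by a tamoxifen-induced Cre under the *Col2a1* promoter, which acts in cartilage cells, but the labels name neither the Cre nor a tamoxifen schedule for the sequenced mice. The study calls its cartilage RNA-seq samples biologically independent, while no source used here gives the number of mice behind a library.

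Collagen chains are modified in the endoplasmic reticulum before they wind into a triple helix. Prolyl 4-hydroxylases make the hydroxyproline that keeps the helix stable at body temperature, lysyl hydroxylases prepare lysines for sugars and crosslinks, and chaperones hold the chains until they fold. Outside the cell, lysyl oxidases turn lysines and hydroxylysines into the aldehydes that tie fibrils together. The hydroxylases and the oxidases all use molecular oxygen, and cartilage and bone depend on these steps for a matrix that bears load. In humans, loss of *CRTAP*, *P3H1*, *PPIB* or *SERPINH1* causes forms of osteogenesis imperfecta.

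Windows upstream of start sites are shown for *P4hb*, *Plod3*, *Crtap*, *Ppib* and *Serpinh1*, because these members ranked the 3 WT libraries in the same order, lowest in library 3 and highest in library 2. Each is the 250 bases before a RefSeq start on GRCm38.p6, read 5′ to 3′ on the strand of the gene, and so lies outside the transcript that starts there. They are chr11:120573254-120573503 (*P4hb*, minus strand), chr5:136986769-136987018 (*Plod3*, plus strand), chr9:114390713-114390962 (*Crtap*, minus strand), chr9:66059919-66060168 (*Ppib*, plus strand) and chr7:99353240-99353489 (*Serpinh1*, minus strand). Capitals mark CCAAT and CCACG on either strand, the letters at the ends of the element through which endoplasmic reticulum stress factors act on folding genes. Each was searched for alone, without regard to order, shared strand or spacing, so capitals do not mark the element itself.
P4hb: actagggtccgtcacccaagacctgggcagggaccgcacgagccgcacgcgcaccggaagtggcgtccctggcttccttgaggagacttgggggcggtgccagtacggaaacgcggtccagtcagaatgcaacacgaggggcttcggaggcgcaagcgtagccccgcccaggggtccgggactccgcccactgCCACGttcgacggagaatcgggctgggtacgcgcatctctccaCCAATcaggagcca
Plod3: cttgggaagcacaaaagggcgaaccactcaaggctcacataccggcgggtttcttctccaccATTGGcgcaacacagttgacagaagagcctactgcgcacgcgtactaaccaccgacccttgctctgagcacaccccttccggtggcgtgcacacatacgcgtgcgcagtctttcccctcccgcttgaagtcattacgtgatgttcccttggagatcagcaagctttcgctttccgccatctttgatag
Crtap: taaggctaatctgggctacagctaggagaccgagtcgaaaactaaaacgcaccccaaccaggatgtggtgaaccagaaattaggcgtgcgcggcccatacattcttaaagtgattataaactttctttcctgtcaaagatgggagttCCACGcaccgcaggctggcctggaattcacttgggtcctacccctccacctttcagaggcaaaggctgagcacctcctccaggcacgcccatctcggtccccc
Ppib: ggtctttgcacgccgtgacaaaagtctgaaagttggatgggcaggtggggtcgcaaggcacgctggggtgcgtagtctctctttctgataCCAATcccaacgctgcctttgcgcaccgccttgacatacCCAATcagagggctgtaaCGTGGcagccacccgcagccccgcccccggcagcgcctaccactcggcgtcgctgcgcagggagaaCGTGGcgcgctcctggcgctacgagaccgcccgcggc
Serpinh1: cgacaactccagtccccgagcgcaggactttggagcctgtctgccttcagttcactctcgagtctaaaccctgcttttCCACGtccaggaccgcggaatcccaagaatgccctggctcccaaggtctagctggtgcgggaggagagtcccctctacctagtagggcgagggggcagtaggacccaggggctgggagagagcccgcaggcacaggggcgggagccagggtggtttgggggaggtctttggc
Such windows were read for 8 of the 10 members, without *Lox* and *Loxl2*. CCACG was present for 5 of these 8 genes (*P4hb*, *P3h1*, *Crtap*, *Ppib* and *Serpinh1*), against 28.3% of all 32851 windows of that length, CCAAT for 4 (*P4hb*, *Plod3*, *P3h1* and *Ppib*), against 33.8%, and both for 3 (*P4hb*, *P3h1* and *Ppib*), against 9.26%. The letters ACGTG or GCGTG, the core of sites for hypoxia-inducible factors, occurred for 7 of the 8 genes, against 38.6% of all windows, with both strands searched for every motif. ACGTG can share bases with CCACG read on the opposite strand. The windows of *P4ha3* and *Plod1* held neither CCAAT nor CCACG. Of the windows printed, only those of *P4hb* and *Ppib* held both CCAAT and CCACG. In that of *P4hb*, CCACG stands before CCAAT, and in that of *Ppib* the 2 lie on opposite strands. These matches describe letters in a window, and the whole element was not searched for.

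Total counts ran from 17405688 to 20969914 in the *Hbb*-cKO libraries and from 16544800 to 17475496 in the WT libraries, and the 10 members took 0.424% to 0.451% of them in *Hbb*-cKO and 0.358% to 0.418% in WT. Levels are given as CPM, in which each count is set against the TMM-adjusted size of its library. Summed over *Hbb-bs* and *Hbb-bt*, the targeted transcripts came to 4195, 5444 and 5014 CPM in *Hbb*-cKO libraries, against 16811, 12449 and 6912 CPM in WT libraries, with every *Hbb*-cKO library below every WT library. Neither gene passed the test (*Hbb-bs*, log2 fold change -1.28, adjusted p = 0.218, and *Hbb-bt*, -1.32, adjusted p = 0.241), and RNA of blood cells is counted with that of cartilage. Of the 9 erythroid genes tested, both *Hbb* genes included, 6 had a negative and 3 a positive log2 fold change. Lower without overlap were 5 of the 9, beside 8.96% of all genes. Among these were the untargeted *Hba-a1* (-1.31), *Hba-a2* (-1.43) and *Alas2* (-1.60). The part of blood RNA in the lower *Hbb* level was not tested. The 12 chondrocyte markers were all tested, and their summed level was 5957 CPM in *Hbb*-cKO library 1, 21270 CPM in library 2 and 14361 CPM in library 3, against 12091 to 15985 CPM in WT. The 12 skeletal muscle genes summed to 26757 to 35920 CPM in *Hbb*-cKO and to 31689 and 36130 CPM in WT libraries 1 and 2, with 52005 CPM in WT library 3. The neutrophil genes summed to 129, 29.0 and 109 CPM in *Hbb*-cKO, against 40.7, 27.9 and 20.8 CPM in WT. For the 9 osteoblast genes the sums were 1486, 693 and 1025 CPM in *Hbb*-cKO, against 824, 1044 and 1253 CPM in WT. Those of the 9 macrophage and osteoclast genes were 2263, 1060 and 1501 CPM in *Hbb*-cKO, against 1477, 1943 and 1728 CPM in WT. *Xist* and Y-linked transcripts were mixed across libraries and not balanced between the groups. Y-linked counts were 1010, 2907 and 1242 in *Hbb*-cKO libraries, against 0, 0 and 2109 in WT libraries. *Hbb*-cKO library 2 had 6 counts of *Xist*, while *Hbb*-cKO libraries 1 and 3 and WT library 3 had both kinds. The part of erythroid, neutrophil, osteoblast, macrophage and osteoclast transcripts in the values of the members was not tested. Fits with muscle, chondrocyte or Y-linked levels as a covariate called 0 members. In bulk tissue, fewer cells of a type and less RNA per cell cannot be told apart.

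In knee joint cartilage, no difference between *Hbb*-cKO and WT mice was detected in the transcript levels of these genes, of which *Serpinh1* had the highest and *P3h1* the lowest fold change. None of the 10 members passed the threshold of 0.05 on edgeR's adjusted p, whereas 18 of all 17175 genes tested, or 0.105%, did. DESeq2 also called 0 of the 10, against 1.45% of the genes to which it gave an adjusted p. None had an unadjusted p under 0.05 in edgeR, a mark passed by 10.1% of all genes. In DESeq2, 1 member did (*Serpinh1*, unadjusted p = 0.045), and the share of all genes there was not counted. Of the log2 fold changes, 7 were positive and 3 negative, from -0.23 (*P3h1*) to 0.28 (*Serpinh1*), with a median of 0.12 beside -0.014 over all genes tested. The 95% intervals of the 10 genes together spanned -0.62 to 0.61, and each included 0, so a change within a gene's interval could have gone undetected. Levels in the *Hbb*-cKO libraries lay wholly above those in WT libraries for 2 members (*Plod1* and *Serpinh1*), beside 8.7% of all genes, and wholly below for 0 members, beside 8.96% of all genes.

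**Figure D1:**
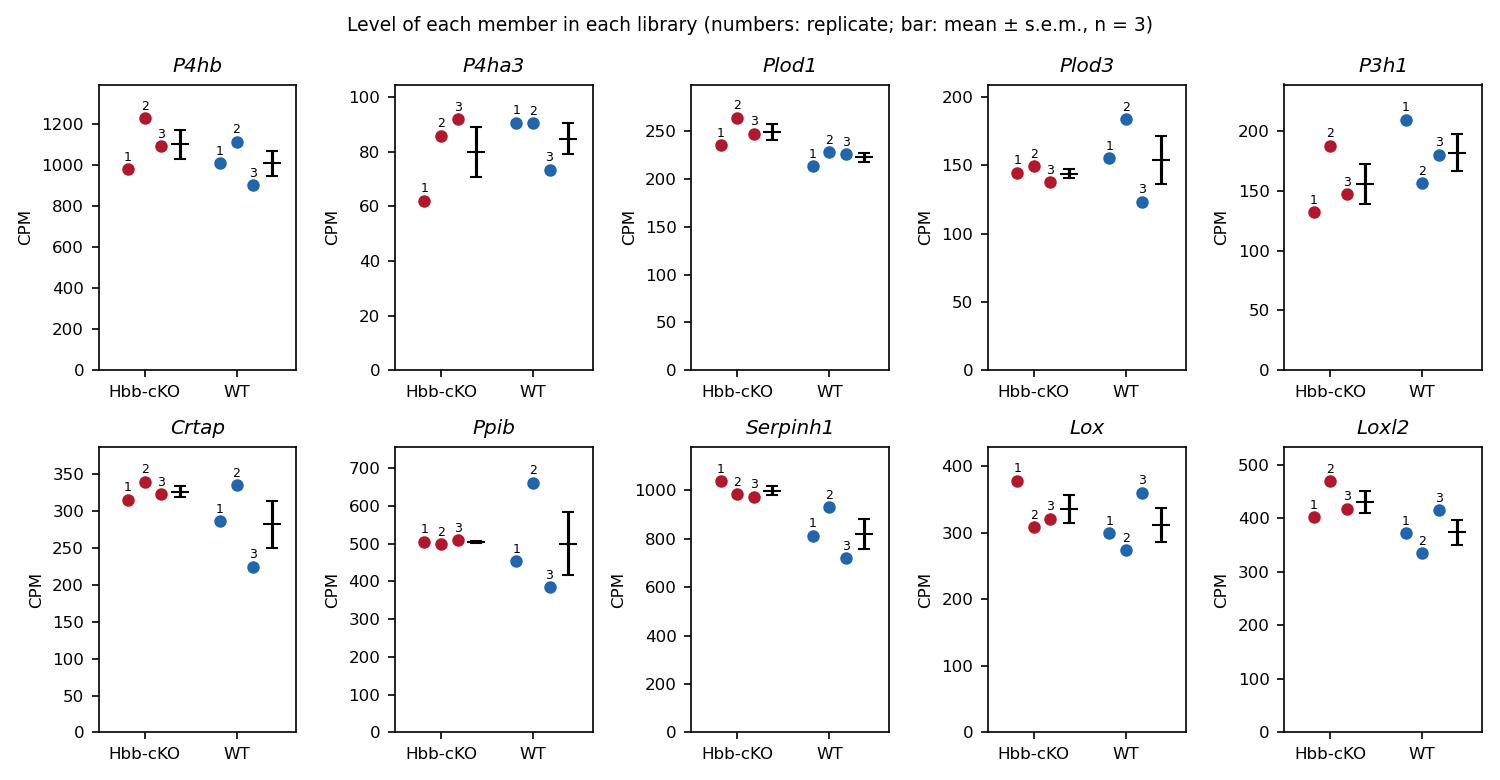
CPM of each member in each library, with *Hbb*-cKO (red) left of WT (blue), the replicate number above each point, and the mean ± s.e.m. (n = 3) as a black bar. The red points lie wholly above the blue points for *Plod1* and *Serpinh1* and overlap them for the other 8 members.

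Prolyl 4-hydroxylase is built from a catalytic α subunit and a β subunit. *P4hb* encodes the β subunit, protein disulfide isomerase, which also forms disulfide bonds in many secreted proteins. It had 981, 1228 and 1094 CPM in *Hbb*-cKO libraries, against 1009.8, 1115 and 903 CPM in WT libraries. The groups overlapped, with *Hbb*-cKO library 2 the highest and WT library 3 the lowest (log2 fold change 0.13, SE 0.15, 95% interval -0.22 to 0.47, adjusted p = 0.840). *P4ha3* encodes 1 of the 3 α subunits, which bind the chain and carry the active site. It had 62.0, 85.8 and 91.9 CPM in *Hbb*-cKO libraries, against 90.6, 90.4 and 73.4 CPM in WT libraries. The highest and the lowest library were both *Hbb*-cKO libraries, and the fold change was -0.086 on the log2 scale (SE 0.17, 95% interval -0.48 to 0.30, adjusted p = 0.915). Without *Hbb*-cKO library 1, the library low in chondrocyte markers, it was 0.073.

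The lysyl hydroxylases differ in where they act on the chain. *Plod1* encodes the enzyme for lysines in the helical part of collagen. Its level was 235, 264 and 247 CPM in *Hbb*-cKO libraries, against 213, 228 and 226 CPM in WT libraries. Every *Hbb*-cKO library was above every WT library, and the difference in log2 CPM had p = 0.1 in a two-sided exact permutation test, the smallest p that 3 against 3 libraries can give. The fold change missed the threshold (log2 fold change 0.16, SE 0.11, 95% interval -0.092 to 0.41, adjusted p = 0.673). *Plod3* encodes an enzyme that also adds galactose and glucose to hydroxylysine. It had 144, 149 and 138 CPM in *Hbb*-cKO libraries, against 155, 184 and 123 CPM in WT libraries. The *Hbb*-cKO values lay inside the WT range, and the log2 fold change of -0.098 (SE 0.15, 95% interval -0.45 to 0.26, adjusted p = 0.886) became 0.061 without WT library 2 and -0.23 without WT library 3. Part of *Plod3* overlaps *Znhit1* on the opposite strand, and since no source here states whether counting used strand, reads there cannot be told apart.

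In the prolyl 3-hydroxylase complex, *P3h1* encodes the enzyme, *Crtap* a scaffold protein without enzyme activity of its own, and *Ppib* cyclophilin B, a prolyl isomerase that speeds folding of the helix. *P3h1* had 132, 188 and 147 CPM in *Hbb*-cKO libraries, against 209, 156 and 180.2 CPM in WT libraries. It had the lowest fold change of the 10 members, but its groups overlapped (log2 fold change -0.23, SE 0.17, 95% interval -0.62 to 0.17, adjusted p = 0.710). *Crtap* had 315, 339.7 and 323 CPM in *Hbb*-cKO libraries, against 286, 335 and 224 CPM in WT libraries. The *Hbb*-cKO libraries lay near the top of the WT range (log2 fold change 0.21, SE 0.16, 95% interval -0.16 to 0.58, adjusted p = 0.713), with 0.071 without WT library 3, 0.37 without WT library 2 and 0.48 with Y-linked expression as a covariate. *Ppib* had 505, 499 and 509 CPM in *Hbb*-cKO libraries, against 453, 661 and 384 CPM in WT libraries. Its coefficient of variation was 1.02% in *Hbb*-cKO and 28.9% in WT, and the log2 fold change was 0.014 (SE 0.20, 95% interval -0.45 to 0.47, adjusted p = 0.990), with -0.046 without WT library 1, -0.14 without WT library 3, 0.28 without WT library 2 and 0.34 with the Y-linked covariate. *Crtap* and *Ppib* also overlap genes on the opposite strand, *4930520O04Rik* and *Snx22*.

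*Serpinh1* encodes HSP47, a chaperone that binds the folded procollagen helix and escorts it out of the endoplasmic reticulum. It had 1038, 984 and 974 CPM in *Hbb*-cKO libraries, against 812, 932 and 719 CPM in WT libraries. All 3 *Hbb*-cKO libraries were above all 3 WT libraries, and *Serpinh1* had the largest fold change of the 10 members, 0.28 on the log2 scale or 1.22-fold (SE 0.14, 95% interval -0.041 to 0.61, adjusted p = 0.550). The exact permutation test gave p = 0.1, its smallest value. In DESeq2 the log2 fold change was 0.29 with an unadjusted p of 0.045 and an adjusted p of 0.504. With the muscle score of each library as a covariate it was 0.24, and with the chondrocyte score it was 0.28, neither past the threshold.

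Among the lysyl oxidases, which act after secretion, *Lox* encodes the founding enzyme for collagen and elastin. It had 378, 309 and 322 CPM in *Hbb*-cKO libraries, against 299.7, 274 and 360.4 CPM in WT libraries. The groups overlapped (log2 fold change 0.11, SE 0.15, 95% interval -0.23 to 0.45, adjusted p = 0.860). *Loxl2* encodes a relative whose known substrates include collagen of basement membranes. It had 403, 470.0 and 418 CPM in *Hbb*-cKO libraries, against 372, 334 and 415 CPM in WT libraries. Only WT library 3 reached into the *Hbb*-cKO range (log2 fold change 0.20, SE 0.13, 95% interval -0.11 to 0.51, adjusted p = 0.664). Both genes overlap annotated antisense transcripts, *Gm41724* at *Lox* and *Gm27177* and *Gm37513* at *Loxl2*.

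The members did not follow one pattern across the libraries. In WT, 5 of them (*P4hb*, *Plod3*, *Crtap*, *Ppib* and *Serpinh1*) were lowest in library 3 and highest in library 2, the order of the chondrocyte score as well. *Lox* and *Loxl2* ran the other way in WT, lowest in library 2 and highest in library 3. The mean log2 CPM of the 9 osteoblast genes, centred on WT, had that order too (-0.21, -0.19 and 0.39 in WT libraries 2, 1 and 3). In *Hbb*-cKO, 5 members (*P4hb*, *Plod1*, *P3h1*, *Crtap* and *Loxl2*) were lowest in library 1 and highest in library 2, again the order of the chondrocyte score. By contrast, *Lox* and *Serpinh1* were highest in library 1. The osteoblast mean was also highest in that library (0.61, -0.64 and -0.069 in *Hbb*-cKO libraries 1, 2 and 3). Only *P4hb* and *Crtap*, 2 of the 10 members, kept the order of the chondrocyte score in both groups. How many of all genes tested share these orders was not counted, so the orders do not set the members apart. Taking the mean of the 10 members in centred log2 CPM, *P4hb* lay nearest to it (root mean square difference 0.064) and *P3h1* farthest (0.24). The other genes closest to that mean profile over the 6 libraries were *Lcmt2* (0.016), *Leprot* (0.022) and *Matn2* (0.024), among 11249 genes whose log2 CPM averaged 3 or more.

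Levels of different genes were compared as CPM per kb of annotated exons. In *Hbb*-cKO, *Serpinh1* led with 409 ± 8.10 CPM per kb and *P4hb* followed with 385 ± 24.9, whereas in WT *P4hb* had 353 ± 21.5 and *Serpinh1* 336 ± 25.2 (mean ± s.e.m., n = 3). These top members overlapped in both groups. With the longest transcript as the length, *Serpinh1* led in WT as well, with 361 ± 27.1 against 353 ± 21.5 for *P4hb*. *Crtap* came next, with 184 ± 4.08 CPM per kb in *Hbb*-cKO and 159 ± 18.1 in WT, then *Ppib*, with 153 ± 0.894 in *Hbb*-cKO and 151 ± 25.2 in WT. The libraries of *Crtap* and *Ppib* overlapped in WT and did not overlap in *Hbb*-cKO. *Loxl2* and *Lox* overlapped each other in both groups, with *Loxl2* at 79.6 ± 3.76 CPM per kb in *Hbb*-cKO and 69.2 ± 4.32 in WT, and *Lox* at 70.4 ± 4.47 in *Hbb*-cKO and 65.2 ± 5.36 in WT. *P3h1*, *Plod1*, *Plod3* and *P4ha3* formed the low end, with *P4ha3* last in both groups, at 25.5 ± 2.91 CPM per kb in *Hbb*-cKO and 27.1 ± 1.82 in WT. From the highest to the lowest member, the WT means spanned 13.0-fold, or 10.2-fold when the longest transcript was used as the length. Per length, *Ppib* stood at 4.46, 3.09 and 4.03 times the level of *P3h1*, its partner in the complex, in *Hbb*-cKO libraries, against 2.52, 4.93 and 2.48 times in WT libraries.

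**Figure D2:**
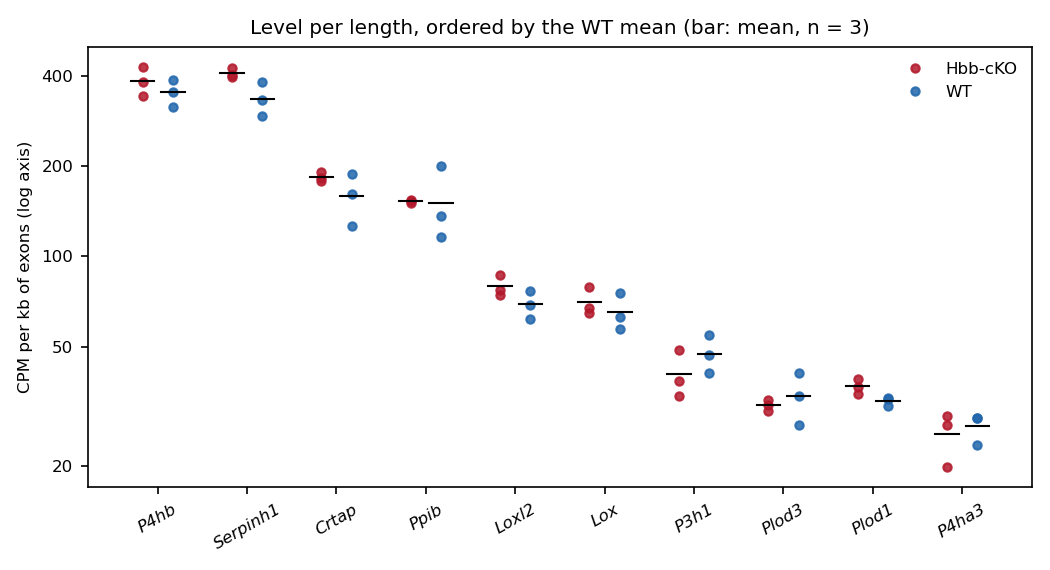
CPM per kb of exons on a log axis for each member, ordered by the WT mean, with *Hbb*-cKO libraries (red) left of WT libraries (blue) and a bar at each mean (n = 3). *P4hb* and *Serpinh1* lie at the top in both groups and *P4ha3* at the bottom, at 25.5 CPM per kb in *Hbb*-cKO and 27.1 in WT.

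Shares within each enzyme family, or among *P3h1*, *Crtap* and *Ppib* of the prolyl 3-hydroxylase complex, were taken per length as well. The genes of the complex encode unlike proteins, so theirs are shares of a complex and not of a family. These shares were looked at after the single values were seen and were not tested. Shares within a family or complex depend on each other, and no background of overlaps was counted for them. The levels of *P4ha3*, *P4ha1* and *Crtap* themselves overlapped between the groups (log2 fold change -0.086, 0.28 and 0.21). *P4ha3* made up 19.0%, 18.0% and 20.9% of the summed α subunit transcripts in *Hbb*-cKO libraries, against 24.9%, 21.6% and 23.0% in WT libraries, without overlap. *P4ha1*, the main α subunit gene in these libraries, made up 60.1 ± 0.675% in *Hbb*-cKO and 55.9 ± 1.49% in WT, again without overlap. In the prolyl 3-hydroxylase complex, *Crtap* took 48.7%, 49.0% and 48.7% in *Hbb*-cKO libraries, against 45.7%, 44.0% and 43.7% in WT libraries. The *Hbb*-cKO shares of *Crtap* were all above those of WT, while those of *P3h1* (9.39% to 12.5% in *Hbb*-cKO and 9.45% to 16.2% in WT) and *Ppib* overlapped. *Plod1* made up 35.8%, 29.5% and 32.3% of lysyl hydroxylase transcripts in *Hbb*-cKO, against 27.4%, 26.9% and 29.6% in WT, with a narrow overlap, and *Plod2* was the most abundant of the family except in *Hbb*-cKO library 1. *Lox* made up 23.4 ± 1.58% of the 5 lysyl oxidase genes in *Hbb*-cKO and 23.2 ± 1.85% in WT, and *Loxl2* 26.4 ± 1.03% in *Hbb*-cKO and 24.6 ± 1.46% in WT, with *Loxl1* the most abundant on average.

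**Figure D3:**
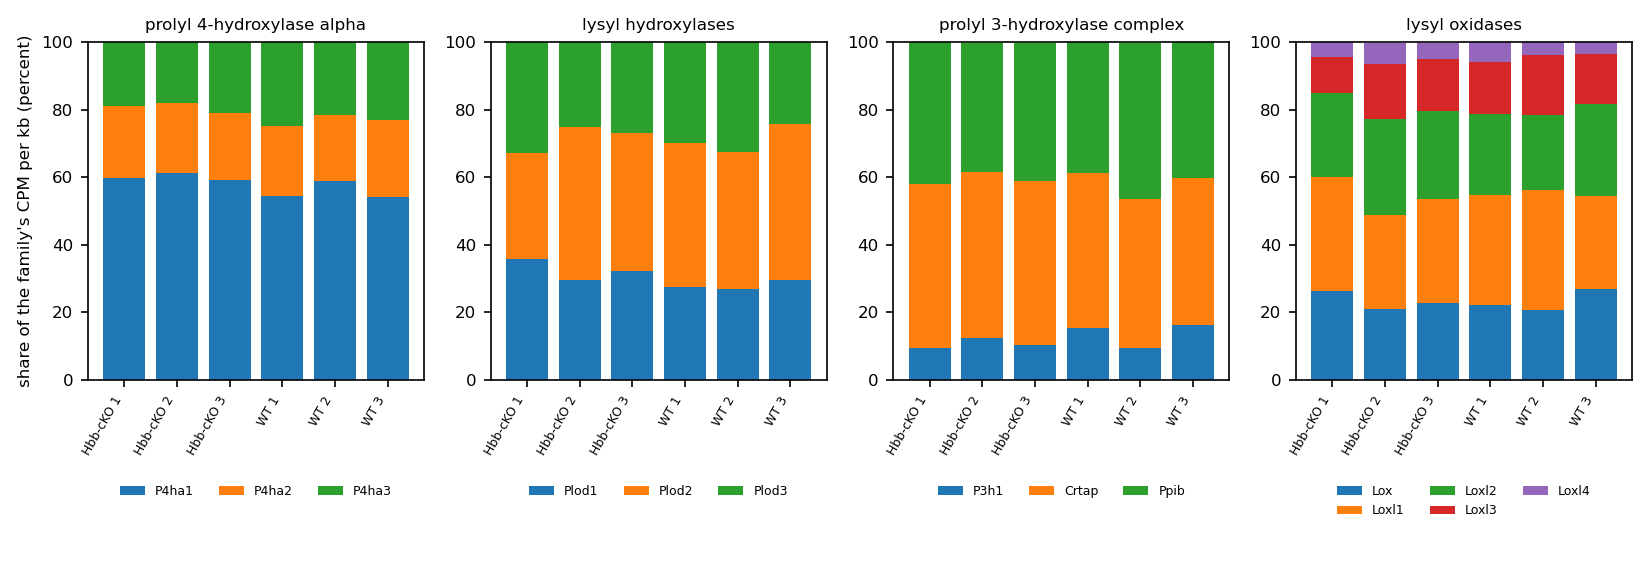
Share of each gene in the summed CPM per kb of its family or complex, in percent, for every library, with *Hbb*-cKO libraries left of WT libraries. *P4ha3* makes up 18.0% to 20.9% of the α subunit genes in *Hbb*-cKO and 21.6% to 24.9% in WT, and the *Crtap* share is 48.7% to 49.0% in *Hbb*-cKO and 43.7% to 45.7% in WT. Shares were not tested.

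The other genes of the same pathway were taken from lists of 39 genes, of which 37 were tested. None passed the threshold in edgeR or in DESeq2. Only *P3h3* and *Lum*, 2 of the 37, had an unadjusted edgeR p under 0.05, beside 10.1% of all genes. In DESeq2 4 of the 37 did, with *Efemp2* (unadjusted p = 0.047) and *Postn* (0.038) added, and the share of all genes there was not counted. The sign was positive for 29 of the 37 log2 fold changes and negative for 8, with a median of 0.19, whereas it was positive for 8165 of all 17175 genes. Groups did not overlap for 5 of the 37, all higher in *Hbb*-cKO, beside 8.7% of all genes that were higher in this way. *P3h3*, whose product is a relative of P3H1 that works with lysyl hydroxylase, had 293, 322 and 275 CPM in *Hbb*-cKO libraries, against 224, 270.2 and 199.9 CPM in WT libraries (log2 fold change 0.36, SE 0.14, adjusted p = 0.456). *Lum*, for the fibril-binding proteoglycan lumican, had 537, 585 and 516 CPM in *Hbb*-cKO libraries, against 445, 478 and 373 CPM in WT libraries (log2 fold change 0.34, SE 0.14, adjusted p = 0.458). Neither passed the threshold.

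The next smallest p-values belonged to *Creb3l1*, for a transcription factor of collagen secretion in bone (log2 fold change 0.28), *Efemp2*, for a fibulin that aids lysyl oxidase (0.42), *Fkbp14* (0.31) and *Fkbp7* (0.32), both for prolyl isomerases of the endoplasmic reticulum, *Mia3*, for a receptor that loads procollagen for export (0.36), and *Postn*, for the matrix protein periostin (0.28). All of these had an adjusted p of at least 0.503. By group, the log2 fold changes were positive for 5 of 5 other genes of prolyl hydroxylation (median 0.16), 2 of 4 of lysyl hydroxylation and glycosylation (-0.075), 9 of 11 of folding and export (0.25), 5 of 7 of propeptide removal (0.19) and 8 of 10 of crosslinking (0.091). Of the closest relatives of the members, *P4ha1* had 0.28, *P4ha2* 0.16, *Plod2* -0.16, *Loxl1* 0.052, *Loxl3* -0.077 and *Loxl4* 0.41, with adjusted p of 0.612 to 0.940. *P4ha1* and *Plod2* are known targets of hypoxia-inducible factors. *Plod2* had 164, 324 and 249.5 CPM in *Hbb*-cKO libraries, against 265, 275 and 283 CPM in WT libraries, and was lowest in *Hbb*-cKO library 1.

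**Figure D4:**
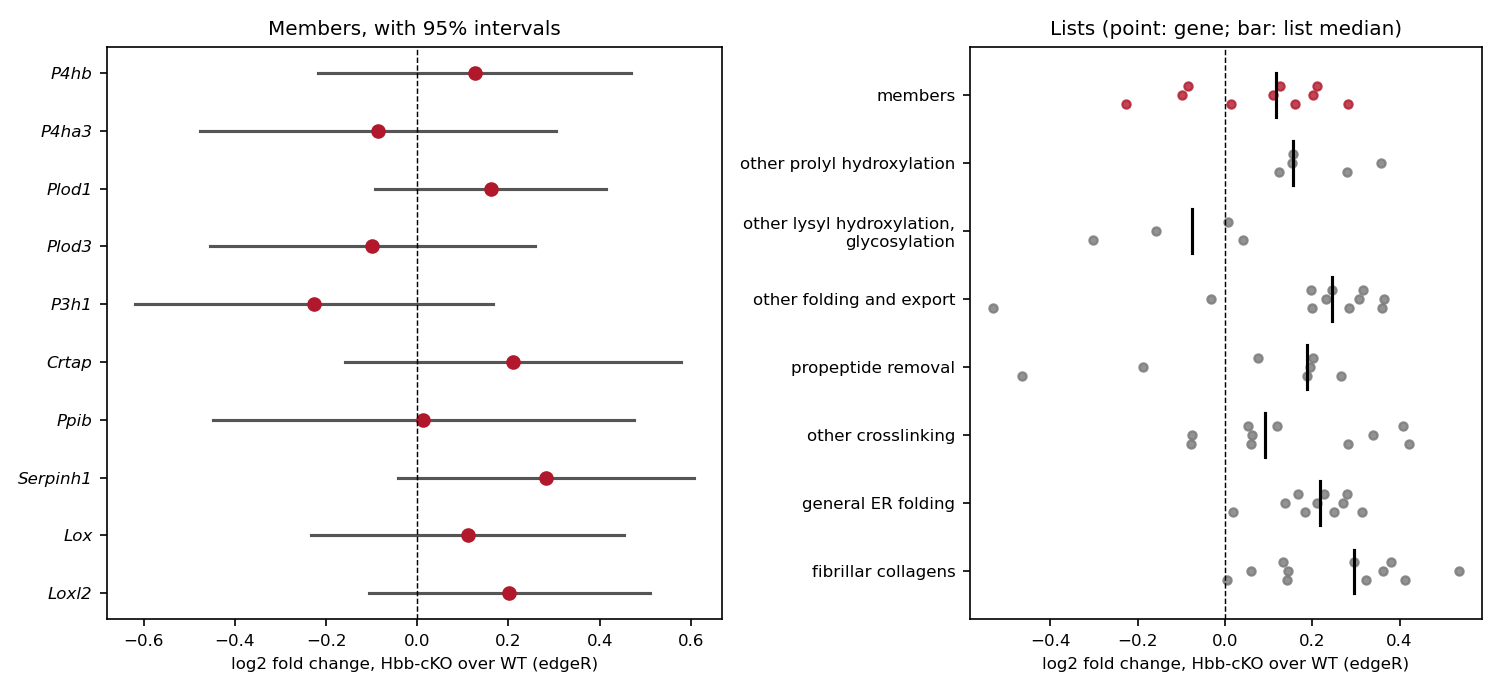
Left, log2 fold change of each member, *Hbb*-cKO over WT, with its 95% interval in edgeR. Right, log2 fold changes of the members and of related gene lists, a point per gene and a bar at each median, 0.12 for the members and 0.30 for the fibrillar collagens. All 10 intervals include 0.

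The collagens on which these enzymes act were among the most abundant transcripts of the tissue. All 11 fibrillar collagen genes were tested and had a positive log2 fold change, with a median of 0.30. None passed the threshold in edgeR and 1, *Col3a1*, passed it in DESeq2. Of the 11, 4 had an unadjusted p under 0.05 in edgeR, beside 10.1% of all genes, and 6 in DESeq2. Higher in *Hbb*-cKO without overlap were 5, beside 8.7% of all genes. *Col1a1*, for the main chain of bone and tendon collagen, averaged 31685 ± 3833 CPM in *Hbb*-cKO libraries, against 21860 ± 878 CPM in WT libraries (log2 fold change 0.54, SE 0.21, adjusted p = 0.434). *Col3a1*, typical of soft connective tissue, averaged 11668 ± 277 CPM in *Hbb*-cKO libraries, against 8766 ± 56.4 CPM in WT libraries (log2 fold change 0.41, SE 0.15, adjusted p = 0.387 in edgeR, and 0.42, SE 0.11, adjusted p = 0.00856 in DESeq2). *Col2a1*, the collagen of cartilage, averaged 25987 ± 7880 CPM in *Hbb*-cKO libraries, against 25895 ± 2031 CPM in WT libraries (log2 fold change 0.0051, SE 0.40, adjusted p = 0.999). Markers of other cells differed between the libraries as well. The 7 endothelial genes, all with a positive log2 fold change and none past the threshold, summed to 754, 671 and 655 CPM in *Hbb*-cKO libraries, against 619, 568 and 517 CPM in WT libraries, without overlap. The 9 fibroblast and tendon genes summed to 2687, 2358 and 2641 CPM in *Hbb*-cKO libraries, against 2336, 2786 and 2223 CPM in WT libraries, with overlap. Of these 9 genes, 6 had a positive and 3 a negative log2 fold change, with a median of 0.10. Highest among them was *Dpt*, for the matrix protein dermatopontin. It had 339, 284 and 329 CPM in *Hbb*-cKO libraries, against 217, 238 and 184 CPM in WT libraries (log2 fold change 0.57, SE 0.14, adjusted p = 0.241). The part of these cells in the levels of the collagens and of the members was not tested.

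Counts of the members were therefore also set against those of the fibrillar collagens. All 10 members together had 42.0, 40.8 and 38.5 counts per 1000 fibrillar collagen counts in *Hbb*-cKO libraries, against 45.5, 46.9 and 43.6 in WT libraries. Every *Hbb*-cKO library was below every WT library, with a ratio of means of 0.891. *P4ha3*, *Plod1*, *Plod3* and *P3h1*, 4 of the 10 members, were lower without overlap on this scale, beside 35.4% of all genes tested, so the share of members was near that of genes at large. The median gene had a ratio of 0.802, and the members ran from 0.687 (*P3h1*) to 0.991 (*Serpinh1*). The direction depended on which collagens were used. Per 1000 counts of collagens II and XI (*Col2a1*, *Col11a1* and *Col11a2*), the members had 273, 94.8 and 119 counts in *Hbb*-cKO libraries, against 120.1, 120.2 and 128 in WT libraries. *Hbb*-cKO library 1, the one low in chondrocyte markers, stood far above the rest there and the other *Hbb*-cKO libraries below WT. The ratio of means was 1.32 with all libraries and 0.871 without *Hbb*-cKO library 1. Per 1000 counts of collagens I, III and V, they had 49.8, 72.5 and 57.4 in *Hbb*-cKO libraries, against 74.0, 77.7 and 66.9 in WT libraries, with overlap at *Hbb*-cKO library 2.

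**Figure D5:**
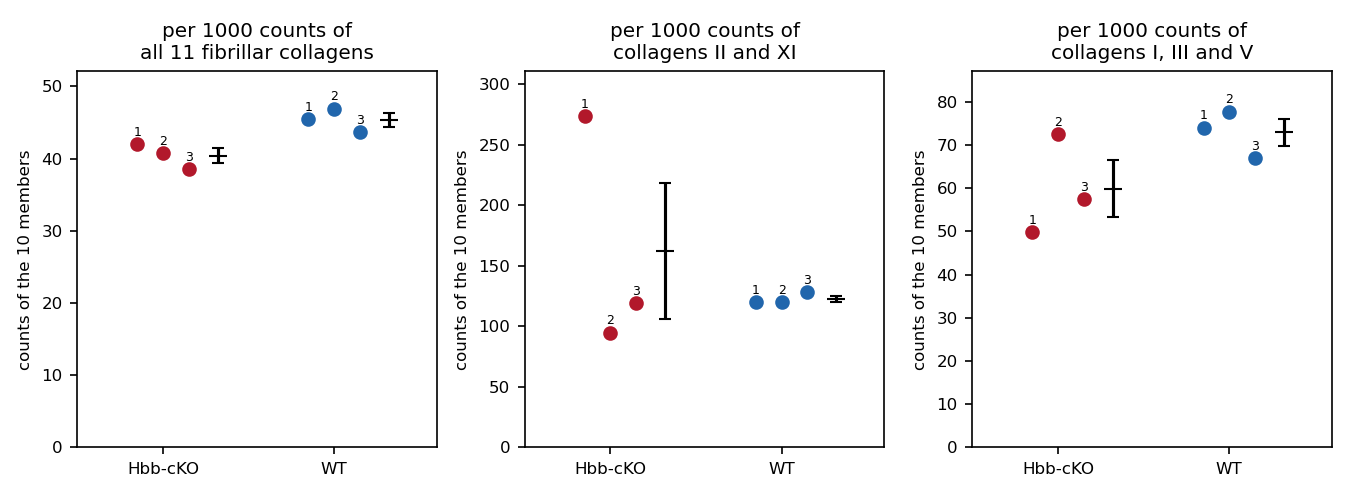
Summed counts of the 10 members per 1000 counts of all fibrillar collagens (left), collagens II and XI (middle) and collagens I, III and V (right), with *Hbb*-cKO (red) left of WT (blue), the replicate number above each point and the mean ± s.e.m. (n = 3) in black. Against all fibrillar collagens the *Hbb*-cKO libraries lie at 38.5 to 42.0 and the WT libraries at 43.6 to 46.9, and against collagens II and XI *Hbb*-cKO library 1 stands apart at 273.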

How the data were processed

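RNA was measured in 3 *Hbb*-cKO and 3 WT libraries, with groups set by the labelled genotype. The authors deposited raw counts per gene, 1 column per library, and these were used as they stand. HISAT2 2.1.0, fastp 0.19.5, CASAVA 1.8, edgeR and StringTie appear in the submitters' processing notes, while settings, strand of counting, genome build and annotation release are not given in the sources used. GENCODE M21 (GRCm38) held 55227 of the 55487 identifiers, 54870 of them at the same position (99.35%), so exon lengths were taken from it. Upstream windows came from RefSeq (GRCm38.p6).

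Of 31373 genes with a count, 17175 passed edgeR's filter (minimum count 10, minimum total 15). TMM factors and the quasi-likelihood test of edgeR 4.0.16 (R 4.3.3) were used, with Benjamini-Hochberg adjustment over all genes tested, a threshold of 0.05 and a prior count of 2 for log2 CPM. DESeq2 1.42.0 was an alternative, with others listed in the closing section. Tests were checked on simulated counts, drawn gene by gene without differences in tissue make-up or sex, so the check does not extend to those. Library pairs differed beyond sampling noise (chi-square of 20.2 to 55.2 per gene over 15 pairs), so none was taken for a repeat of another. Each was kept as a replicate by its label, since this check cannot tell whether libraries came from different mice. Single differences were tested by exact permutation. Intervals give the uncertainty of the log2 fold change between groups, with an SE taken from edgeR's F statistic. They rest on 3 libraries per group and on dispersions that edgeR moderates across genes.

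The members and lists were chosen with earlier results of these data known. The text names the 10 members, 8 pathway genes with the smallest unadjusted p (none passed the threshold), their closest relatives and the 3 genes nearest to the members' mean profile. Other genes were named after their values were seen.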

Additional observations from a re-analysis of the deposited data

How the results depend on the processing

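No member and no pathway gene was called under any of the 15 alternative fits or at an adjusted p of 0.1. Of 150 member fold changes in those fits, 142 kept their sign and 8 reversed, and none was called. An unadjusted p under 0.05 was seen for 1 member in DESeq2, 2 with the Y-linked covariate and 2 without WT library 2. The other fits gave 0 members such a p, and the share of all genes in these fits was not counted. Leaving out 1 library at a time, the log2 fold change ran from -0.19 to 0.073 for *P4ha3*, from -0.23 to 0.061 for *Plod3* and from -0.14 to 0.28 for *Ppib*, with -0.046 without WT library 1. With Y-linked expression as a covariate, *P4ha3* had 0.073, *Plod3* 0.16 and *Lox* -0.044, and with the muscle score *Ppib* had -0.075. *Serpinh1* stayed between 0.20 and 0.45, with an adjusted p of 0.237 to 0.907. Over all genes, 18 were called in edgeR, against 249 in DESeq2, 60 without a filter on low counts, 48 with the Y-linked covariate, 41 at an adjusted p of 0.1, 1 with the chondrocyte score (added after seeing the data) and 1 to 39 without 1 library. With the replicate block 4 genes and 0 members were called, and the numbers did not pair the libraries (correlations of same-numbered deviations -0.026, -0.11 and -0.029). The ratio of members to collagens was 0.891, against 1.32 with collagens II and XI, 0.822 with collagens I, III and V (added after seeing the data) and 0.874 to 0.912 without 1 library. The span of member levels per length was 13.0-fold, or 10.2-fold with the longest transcript. With collagens II and XI, leaving out 1 library at a time (added after seeing the data) gave 0.871, without *Hbb*-cKO library 1, to 1.598. The cause of these shifts was not tested. With 3 libraries a group, changes within the intervals given could have gone undetected. Mixed *Xist* and Y-linked counts, not balanced between the groups, and unstated strand limit what single values mean. So do the unequal muscle, chondrocyte, osteoblast, macrophage and osteoclast transcripts.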

Other observations

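Genes of general folding in the endoplasmic reticulum, which serve secreted proteins other than collagen as well, were not called in either direction. All 10 were tested, none passed the threshold in edgeR or in DESeq2, and none had an unadjusted p under 0.05 in edgeR. In DESeq2 1 of the 10 had such an unadjusted p. The log2 fold change was positive for all 10, with a median of 0.22, and for 8165 of all 17175 genes, with a median of -0.014. Groups did not overlap for 2 of the 10, both higher in *Hbb*-cKO, beside 8.7% of all genes. *Hsp90b1*, for the chaperone GRP94, averaged 470.2 ± 21.6 CPM in *Hbb*-cKO libraries, against 378 ± 26.7 CPM in WT libraries (log2 fold change 0.31, SE 0.14, adjusted p = 0.497), without overlap. *Hspa5*, for BiP, the main chaperone of the compartment, averaged 443 ± 43.7 CPM in *Hbb*-cKO libraries, against 367 ± 25.1 CPM in WT libraries (log2 fold change 0.27, SE 0.17, adjusted p = 0.628). *Calr*, for the calcium-binding chaperone calreticulin, averaged 797 ± 22.7 CPM in *Hbb*-cKO libraries, against 657 ± 81.5 CPM in WT libraries (log2 fold change 0.28, SE 0.17, adjusted p = 0.634). *Canx*, for the lectin chaperone calnexin, had 0.019 (SE 0.11, adjusted p = 0.977).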
